A study of Bos taurus with 8 samples.

Results

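The difference between 22 h and 6 h after the luteinizing hormone (LH) surge was measured in bovine granulosa cells, the steroid-producing cells that line the ovarian follicle. All 8 of the 8 arrays of the series entered it, 4 of 22 h and 4 of 6 h. Each array was hybridised with post-LH RNA in one dye and with RNA taken 2 h before the surge in the other, so every value is a log2 ratio of post-LH over pre-LH, and the difference is the 22 h ratio minus the 6 h ratio. A positive difference therefore means more RNA at 22 h than at 6 h. Members were all probes with a gene symbol: 21790 of 43794 probes had 1 symbol, 19789 of these passed the filter on dim probes, and they stood for 14138 genes, each given by its brightest tested probe. Of 90 called genes among those named by rule or in the text that had several tested probes, 27 had all probes called the same way, 62 had at least 1 probe not called and 1 had a probe called the other way.

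The donors were normally cyclic Holstein Friesian cows, 30 in the study, which had been treated with ear implants of the progestin norgestomet (Crestar), a dose of norgestomet with estradiol valerate, prostaglandin (Prosolvin) and decreasing doses of ovine follicle-stimulating hormone (FSH). The 22 h group came from preovulatory follicles of cows ovariectomised 24 h after gonadotropin-releasing hormone (GnRH), which induces the surge, and the 6 h group from follicles larger than 8 mm collected 8 h after GnRH. The pre-LH group came from follicles of 6 to 8 mm of cows with the same stimulation that were ovariectomised 2 h after removal of the implant. Stimulation with FSH is therefore common to all groups. Follicles were turned inside out and scraped, which by the labels recovers mural granulosa cells for the most part, together with a few theca cells. Theca cells form the layer of the follicle wall outside the granulosa. RNA was amplified before labelling. The labels number 4 biological replicates per time point but do not say whether a replicate was a cow, a follicle or a pool.

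As background, the LH surge stops the growth of the dominant follicle and starts ovulation and luteinization, the conversion of granulosa cells into progesterone-producing luteal cells. Early in this interval granulosa cells transiently make the progesterone receptor. Later, prostaglandins made by the inducible cyclooxygenase and remodelling of the follicle wall are needed for rupture. Luteal cells make progesterone from cholesterol, which they take up from lipoproteins or synthesise. Sterol sensing in the endoplasmic reticulum, through the SREBP transcription factors, lowers synthesis when cell cholesterol is high.

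Replicate 1 and 2 of each time had post-LH RNA in the red dye and replicate 3 and 4 had it in the green dye, and the fit included a dye effect. Between 75.1% and 85.4% of probes were above background in each channel. The log2 ratios correlated at 0.52 to 0.73 among 22 h arrays, at 0.55 to 0.87 among 6 h arrays, and at 0.13 to 0.44 between the times. All 22 h arrays lay on one slide and all 6 h arrays on the other, so time and slide cannot be told apart in the arrays themselves. In the pre-LH channel no gene was called between the slide of 22 h and the slide of 6 h (0 of 14138 by limma on single channels). In the same test 81 genes had an unadjusted p under 0.05. This is well under the share of 0.05 that a calibrated test passes where nothing differs. The test was thus conservative, and its 0 calls say little about the slides. The standard deviation of the slide difference over genes was 0.104 on the log2 scale in the pre-LH channel, against 0.489 in the post-LH channel, where the same fit called 893 genes.

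Between 22 h and 6 h, 2139 of 14138 genes were called at an adjusted p under 0.05 (15.1%). Of these, 1091 were higher at 22 h (7.72%) and 1048 were lower (7.41%), and the median difference over all genes was 0.01. The 4 arrays of 22 h lay all above the 4 of 6 h for 1350 genes (9.55%) and all below them for 1200 (8.49%). At least a 2-fold difference was seen in 344 called genes that were higher (2.43%) and 312 that were lower (2.21%). Against pre-LH RNA, 2878 genes were called at 22 h (20.4%) and 3437 at 6 h (24.3%), in comparisons that use the same pre-LH label. Throughout, "without" an array means that this array alone was left out. Calls between the times numbered 1328 without the 6 h array of replicate 1, 1187 without that of replicate 2 and 1291 without the 22 h array of replicate 3. Plain median centring of each array left 22 calls and scaling between arrays left 211, while 2139 and 2137 of the 2139 genes kept their direction. Genes called in these same arrays were unlikely to change direction, so the kept directions say little about how stable the calls are. In what follows, a difference is given ± its standard error from the moderated fit over 4 arrays of each time, and "rose", "fell" and "called" refer to the adjusted p under 0.05 of this comparison. Because the cells were measured in bulk, fewer cells of a type and less RNA per cell cannot be told apart. Counts of list members below are to be read beside the shares of all genes, 7.72% higher and 7.41% lower. Several lists lie near these shares, and their counts then say nothing particular about the list.

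**Figure D1:**
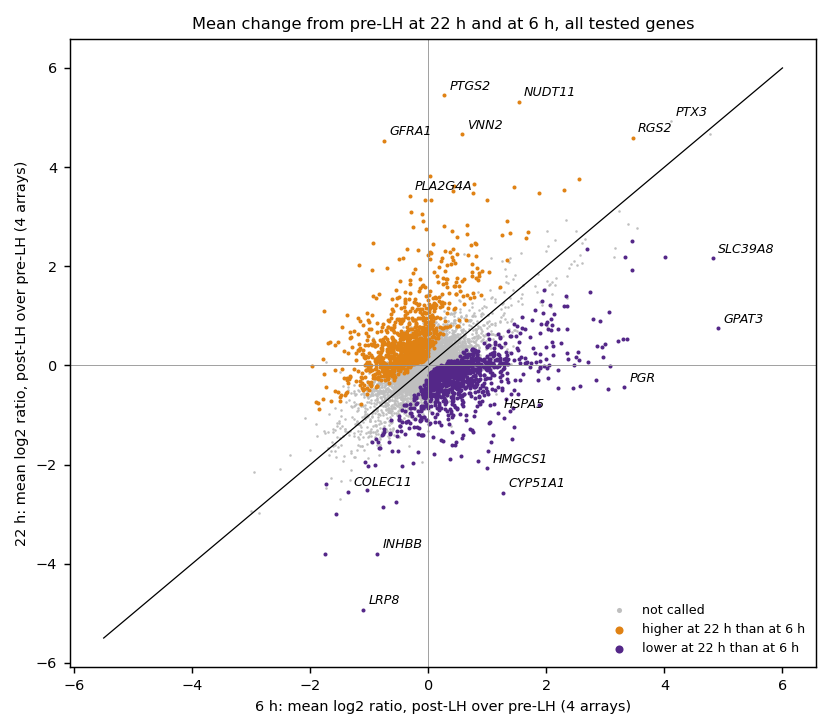
Mean log2 ratio of post-LH over pre-LH RNA at 22 h (vertical axis, 4 arrays) against that at 6 h (horizontal axis, 4 arrays) for 14138 genes, with equal values on the diagonal. Orange points are the 1091 genes called higher and purple points the 1048 called lower at 22 h than at 6 h. PTGS2 and GFRA1 stand above 4 at 22 h and near or below 0 at 6 h, and PGR and GPAT3 stand below 1 at 22 h and above 3 at 6 h.

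The genes with the largest rises were far above their pre-LH level at 22 h and mostly near or below it at 6 h. GFRA1, the co-receptor of the growth factor GDNF, had log2 ratios of 4.96, 5.20, 4.39 and 3.57 at 22 h and -0.76, -0.26, -0.92 and -1.07 at 6 h, a difference of 5.28 ± 0.23 (adjusted p = 9.66e-05), or 39.0-fold. PTGS2, the inducible cyclooxygenase, gave 4.47, 5.92, 6.09 and 5.30 at 22 h and 0.68, 0.29, 0.10 and 0.0022 at 6 h, a difference of 5.17 ± 0.37 (adjusted p = 5.70e-04). The groups did not overlap for either gene, and the 6 h ratios of PTGS2 lay just above 0, where its probe was above background on 3 of 4 arrays and in 4 of 8 pre-LH channels. All 3 PTGS2 probes were called, with differences of 5.17, 3.04 and 0.27.

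VNN2, a vanin pantetheinase that releases cysteamine, had ratios of 4.66, 4.81, 4.70 and 4.47 at 22 h and 0.57, 0.82, 0.32 and 0.55 at 6 h and rose by 4.10 ± 0.093. NUDT11, a phosphohydrolase of inositol pyrophosphates, was already raised at 6 h and rose further, by 3.79 ± 0.29 (means 5.32 at 22 h and 1.53 at 6 h). PLA2G4A, the cytosolic phospholipase that frees arachidonic acid for prostaglandin synthesis, had ratios of 3.20, 3.83, 3.71 and 2.96 at 22 h and -0.22, -0.24, -0.33 and -0.48 at 6 h. Every 22 h value of PLA2G4A was above 2 and every 6 h value below 0. Other large rises were those of the heparan sulfate sulfotransferase HS3ST5 (3.79 ± 0.18), the guidance cue SEMA3E (3.40 ± 0.12), the endoplasmic reticulum chaperone CLGN (3.39 ± 0.28) and the adhesion protein AMIGO2 (3.39 ± 0.25). The second, dimmer probe of HS3ST5 was not called (-0.06), and SEMA3E was above background on 1 of 4 arrays at 6 h. Rises above 3 were also seen for GALNT13, which starts mucin-type O-glycans (3.29 ± 0.16), SAT2, of the polyamine acetyltransferase family (3.20 ± 0.25), and LRIG1, a negative regulator of the EGF receptor (3.19 ± 0.12). The matrix protein gene POSTN (3.17 ± 0.31), the chromatin remodelling ATPase SMARCA1 (3.10 ± 0.24) and RHOBTB1, which encodes an atypical GTPase (3.05 ± 0.17), completed the 15 largest.

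Most of the genes with the largest falls were near their pre-LH level at 22 h and well above it at 6 h. PGR, the progesterone receptor, had ratios of -0.22, -0.32, -0.62 and -0.58 at 22 h and 3.41, 3.41, 3.22 and 3.24 at 6 h, a difference of -3.75 ± 0.051 (adjusted p = 9.57e-07). The groups did not overlap, and the 22 h values were all slightly below pre-LH. GPAT3, an acyltransferase of triglyceride and phospholipid synthesis, had ratios of 0.71, 0.71, 0.61 and 0.98 at 22 h and 4.86, 5.25, 4.65 and 4.86 at 6 h, a difference of -4.15 ± 0.14. It remained above the pre-LH level on every 22 h array, and 2 of its 3 probes were called. IL33, an alarmin cytokine of the interleukin family, gave -0.81, 0.24, -1.17 and -0.14 at 22 h and 2.84, 3.70, 3.05 and 2.56 at 6 h, and all 3 of its probes were called lower.

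NCALD, a neuronal calcium sensor, fell by 3.13 ± 0.14 on its bright probe, while its dimmer probe was not called (-0.19). MARCHF3, a membrane-bound ubiquitin ligase (-3.09 ± 0.13), PCBD1, a pterin dehydratase and cofactor of HNF transcription factors (-2.99 ± 0.23), and AKAP7, an anchor of protein kinase A (-2.91 ± 0.18), were each below 0 on average at 22 h and above 2 at 6 h. TFPI2, a serine protease inhibitor (-2.83 ± 0.31), and SRXN1, which restores oxidised peroxiredoxins (-2.79 ± 0.27), were slightly above pre-LH on average at 22 h. LRP8 and INHBB differed from these in being below pre-LH at both times. LRP8, a lipoprotein and reelin receptor, had ratios of -4.77, -4.75, -4.99 and -5.20 at 22 h and -1.73, -1.48, -0.90 and -0.33 at 6 h, and INHBB, the inhibin and activin beta B subunit, had -3.39, -3.65, -3.97 and -4.18 at 22 h and -1.51, -0.94, -0.98 and -0.015 at 6 h. For both, all 22 h values lay below -3 and no 6 h value did. The remaining genes of the 15 largest falls, CYP51A1, HMGCS1, IDI1 and FADS2, belong to lipid synthesis and are described with it.

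**Figure D2:**
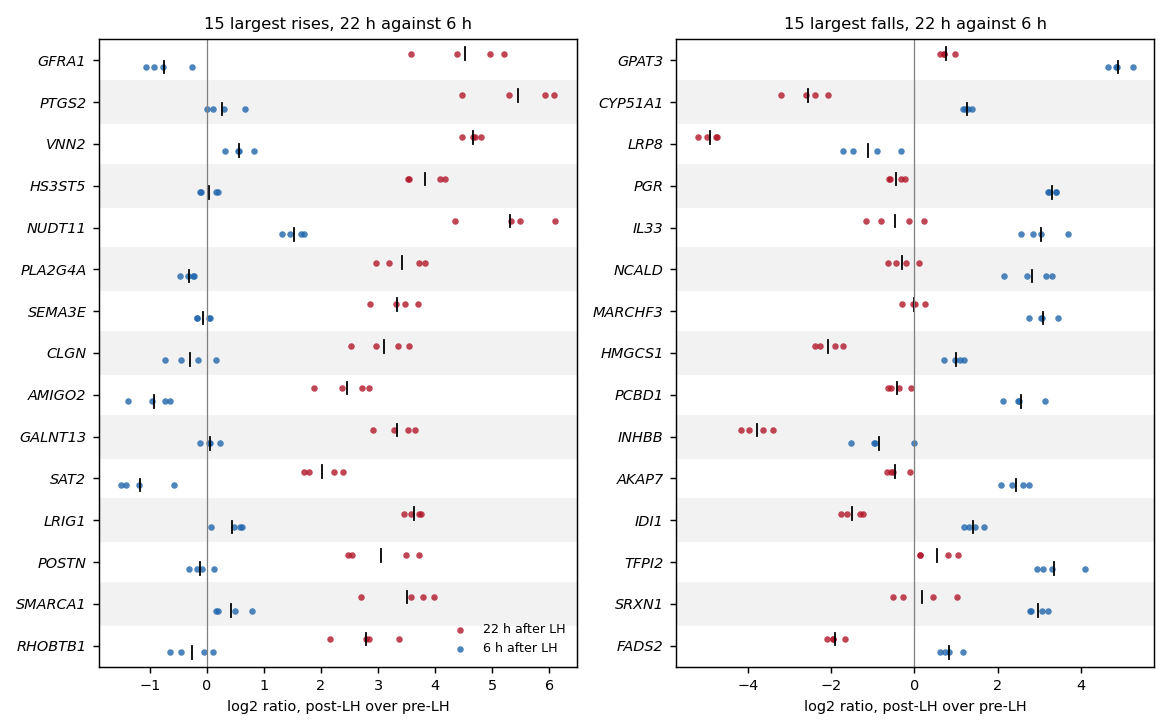
Log2 ratio of post-LH over pre-LH RNA on each array for the 15 genes with the largest rises (left) and the 15 with the largest falls (right) among called genes whose arrays do not overlap. Red points are the 4 arrays of 22 h, blue points the 4 arrays of 6 h, and black ticks the means. The rising genes lie above 1 at 22 h and mostly near 0 at 6 h, and most falling genes lie near 0 at 22 h and above 2 at 6 h.

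Cholesterol synthesis was the process list with the largest share of called members. Of 19 tested members 16 were lower at 22 h than at 6 h and 0 were higher, against 7.41% lower and 7.72% higher among all genes, and the median difference was -1.58. The median ratio to pre-LH was -1.02 at 22 h and 0.76 at 6 h. Taken separately against pre-LH RNA, 14 members were called lower at 22 h (10.6% of all genes) and 14 were called higher at 6 h (11.5% of all genes). CYP51A1, the lanosterol demethylase, had ratios of -3.20, -2.61, -2.39 and -2.07 at 22 h and 1.29, 1.17, 1.38 and 1.22 at 6 h, a difference of -3.83 ± 0.18 (adjusted p = 1.19e-04), and its 3 probes were all called. HMGCS1, which makes hydroxymethylglutaryl-CoA at the start of the mevalonate pathway, gave -2.27, -2.39, -1.91 and -1.72 at 22 h and 1.11, 0.71, 1.20 and 0.99 at 6 h (-3.07 ± 0.12). IDI1, the isopentenyl diphosphate isomerase, gave -1.63, -1.77, -1.31 and -1.24 at 22 h and 1.32, 1.20, 1.45 and 1.68 at 6 h (-2.90 ± 0.072). In all of these every 22 h array was below pre-LH and every 6 h array above it.

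Calls were spread over the early, middle and late steps of the pathway. The other tested members lie outside the rule for named genes and are given here after their values were seen. In the early steps, ACAT2 differed by -2.04 ± 0.10, MVK, the mevalonate kinase, by -0.98 ± 0.16, and FDPS, the farnesyl diphosphate synthase, by -2.61 ± 0.18. PMVK, which acts after MVK, differed by -0.90 ± 0.21 and lost its call when any single array other than the 6 h array of replicate 3 was left out (adjusted p up to 0.120). Squalene is made and oxidised by FDFT1 (-1.79 ± 0.14) and SQLE (-2.38 ± 0.21), and closed to the sterol ring by LSS (-0.70 ± 0.10). Of the enzymes that then modify the ring, NSDHL differed by -2.73 ± 0.11, DHCR7, the last step to cholesterol, by -2.11 ± 0.18, and SC5D by -1.58 ± 0.13. MSMO1 (-1.46 ± 0.25), HSD17B7 (-1.24 ± 0.090) and EBP (-0.72 ± 0.12) were called with smaller falls, and MSMO1 was no longer called without the 6 h array of replicate 1 (adjusted p = 0.0503). Not called were MVD (-0.44 ± 0.20), TM7SF2 (-0.32 ± 0.14) and GGPS1 (-0.24 ± 0.072), of which GGPS1 makes geranylgeranyl diphosphate rather than sterol. Leaving out each array in turn gave 14 to 16 members lower. Median centring left 1 called and scaling between arrays 3.

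Genes of sterol sensing, uptake and export gave 4 of 24 members lower and 1 higher. INSIG1, which holds SREBP back in the endoplasmic reticulum and is itself a known SREBP target, had ratios of -1.43, -1.48, -1.62 and -1.87 at 22 h and 0.43, 0.42, 0.24 and 0.52 at 6 h and fell by 2.00 ± 0.093, with all 3 probes called. SREBF2, which encodes the SREBP factor of sterol synthesis, fell by 0.74 ± 0.056 (means -0.78 at 22 h and -0.034 at 6 h). SCARB1, the HDL receptor, stayed above pre-LH at both times (means 0.71 at 22 h and 2.09 at 6 h) and fell by 1.38 ± 0.22. LIPA, the lysosomal acid lipase that frees cholesterol from lipoprotein esters, rose by 1.04 ± 0.15. LRP8, given above, was the fourth member that fell.

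In fatty acid and triglyceride metabolism 9 of 34 members were lower and 4 higher. FADS2, a desaturase of polyunsaturated fatty acids, had ratios of -1.68, -2.10, -1.96 and -1.95 at 22 h and 0.84, 1.16, 0.73 and 0.63 at 6 h and fell by 2.76 ± 0.12. DGAT2, which makes triglyceride from diacylglycerol, had -0.97, -1.04, -1.54 and -1.44 at 22 h and 1.62, 1.68, 1.21 and 1.29 at 6 h and fell by 2.70 ± 0.049 (adjusted p = 4.06e-06). Both genes were below pre-LH on every 22 h array and above it on every 6 h array. Chosen after their values were seen, ACSL3, an acyl-CoA synthetase of lipid droplets, differed by -1.84 ± 0.14, the citrate lyase ACLY by -1.34 ± 0.18, and the stearoyl-CoA desaturase SCD by -0.79 ± 0.13. FASN, the fatty acid synthase, differed by -0.70 ± 0.17 and was not called when any 1 array was left out (adjusted p up to 0.103). Among the rises, ACADM, the medium-chain dehydrogenase of beta-oxidation, rose by 1.98 ± 0.21 (means 1.02 at 22 h and -0.96 at 6 h), and CPT2, which brings acyl chains into mitochondria, rose by 1.05 ± 0.094 (means 0.71 at 22 h and -0.34 at 6 h). GPAM, a mitochondrial acyltransferase, rose by 0.67 ± 0.11, and PNPLA2, the triglyceride lipase, by 1.00 ± 0.19. PNPLA2 was no longer called without the 22 h array of replicate 3 and the 6 h arrays of replicate 1 and 4 (adjusted p up to 0.0550). SLC27A2, a very long chain acyl-CoA synthetase chosen after its value was seen, differed by 3.00 ± 0.29.

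**Figure D3:**
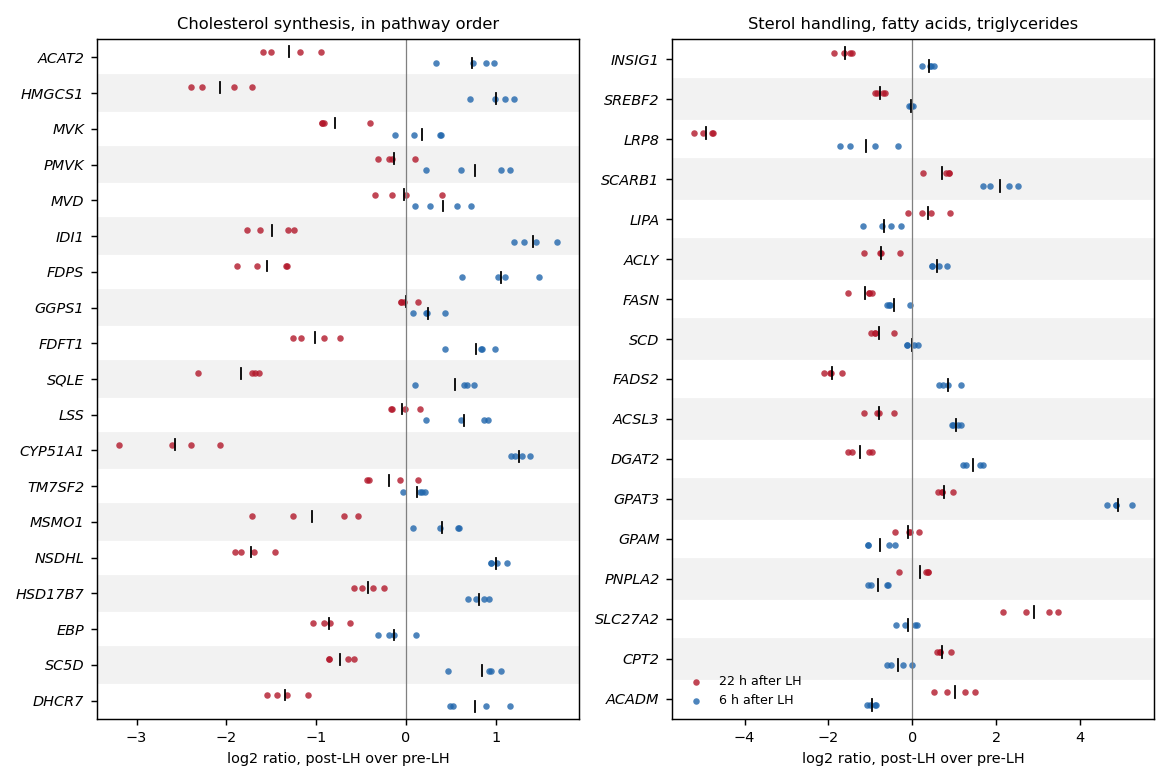
Log2 ratio of post-LH over pre-LH RNA on each array for the 19 tested cholesterol synthesis genes in pathway order (left) and for genes of sterol handling, fatty acids and triglycerides (right). Red points are 22 h, blue points 6 h, and black ticks the means. CYP51A1, HMGCS1 and IDI1 lie below 0 at 22 h and above 0 at 6 h, while ACADM and CPT2 lie above 0 at 22 h and mostly below 0 at 6 h.

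Among genes of prostaglandin synthesis, transport and signalling, 5 of 32 members rose and 4 fell, with a median difference of 0.01. Enzymes of synthesis stood among both the rises and the falls. The rises included PLA2G4A and PTGS2, given above, and PTGES, an inducible prostaglandin E synthase, which rose by 0.34 ± 0.050 (means 0.31 at 22 h and -0.028 at 6 h). They also included the reductases PTGR1 and PTGR2, which inactivate prostaglandin metabolites. PTGR1 was below pre-LH on all 6 h arrays, with ratios of -0.68, 0.039, -0.30 and 0.27 at 22 h and -1.92, -2.03, -1.99 and -1.09 at 6 h (1.59 ± 0.25). PTGR2 rose by 1.10 ± 0.20, but it was no longer called without the 22 h array of replicate 3 and the 6 h arrays of replicate 1 and 2 (adjusted p up to 0.0682). The falls were those of SLCO2A1, the prostaglandin uptake carrier (-1.06 ± 0.16), PTGDR, a prostaglandin D receptor (-1.06 ± 0.15), the thromboxane synthase TBXAS1 (-0.78 ± 0.090) and the secreted phospholipase PLA2G12A (-0.62 ± 0.11). PLA2G12A was no longer called without the 22 h array of replicate 3 and the 6 h arrays of replicate 1 and 2 (adjusted p up to 0.0636). HPGD, the dehydrogenase that inactivates prostaglandins, was far below pre-LH at both times, with ratios of -4.09, -2.86, -2.98 and -1.95 at 22 h and -3.45, -3.35, -2.55 and -2.15 at 6 h. Its groups overlapped and it was not called (difference -0.10 ± 0.32, adjusted p = 0.894).

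Ovulatory mediators and progesterone receptor targets divided, with 4 of 32 members higher and 6 lower. PPARG, a nuclear receptor of lipid and prostaglandin ligands, rose by 1.61 ± 0.16 (means 0.44 at 22 h and -1.17 at 6 h). RGS2, which shortens G protein signals, was strongly raised at both times and higher at 22 h, with ratios of 4.50, 4.96, 4.72 and 4.18 at 22 h and 3.77, 3.82, 3.43 and 2.82 at 6 h (1.13 ± 0.20, adjusted p = 0.0142). ADAMTS1, a metalloproteinase that cleaves versican, fell by 1.10 ± 0.15 (means 1.04 at 22 h and 2.14 at 6 h), alongside PGR and TFPI2. The genes of the hyaluronan matrix did not pass the test. PTX3 had ratios of 4.78, 5.00, 4.79 and 5.12 at 22 h and 4.69, 4.49, 3.42 and 3.82 at 6 h (difference 0.81 ± 0.23, adjusted p = 0.0725). HAS2 differed by -0.30 ± 0.12 on a dim probe (mean log2 intensity 7.16), which may compress its ratios. TNFAIP6 differed by -0.11 ± 0.59 with its post-LH channel saturated on 2 arrays of 22 h and all 4 of 6 h. The EGF-like factor AREG had ratios of 0.061, 0.057, -0.069 and 0.080 at 22 h and 2.56, 1.56, 0.32 and 1.15 at 6 h and missed the threshold (difference -1.37 ± 0.35, adjusted p = 0.0523). PLAT, the tissue plasminogen activator, was raised at both times (means 2.54 at 22 h and 2.15 at 6 h) and was not called, nor was TIMP1 (means 2.22 at 22 h and 2.57 at 6 h), although 1 of its 2 probes was.

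Of 32 immediate early and early response factors, 4 fell and 1 rose. EGR1 stood above pre-LH at both times (means 2.51 at 22 h and 3.45 at 6 h) and fell by 0.94 ± 0.18, but was no longer called without the 22 h arrays of replicate 2 and 3 and the 6 h arrays of replicate 2 and 3 (adjusted p up to 0.0603). DUSP6, a phosphatase of ERK kinases, fell by 0.70 ± 0.12. FOS (means 2.40 at 22 h and 2.02 at 6 h) and NR4A1 (means 2.03 at 22 h and 2.52 at 6 h) were above pre-LH at both times and were not called, with differences of 0.38 ± 0.16 and -0.49 ± 0.29. MYC was below pre-LH at both times and not called (-0.17 ± 0.23).

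Steroidogenesis gave 6 of 24 members higher and 4 lower. HSD3B1, which makes progesterone from pregnenolone, had ratios of 0.71, -0.34, 1.13 and 1.15 at 22 h and -1.08, -1.68, -1.45 and -1.11 at 6 h and rose by 1.99 ± 0.29 (adjusted p = 0.00716). It was below pre-LH on all 6 h arrays and above it on 3 of 4 arrays of 22 h. NR5A2, a nuclear receptor that drives steroidogenic genes in granulosa cells, rose by 1.96 ± 0.16, with ratios of 1.42, 1.62, 1.28 and 1.04 at 22 h and -0.91, -0.40, -0.41 and -0.76 at 6 h, on 1 of its 3 probes. CYB5A, an electron donor of steroid hydroxylases, rose by 1.14 ± 0.17. HSD17B4, a peroxisomal dehydrogenase chosen after its value was seen, differed by 0.96 ± 0.13. FDX1, the ferredoxin that feeds electrons to CYP11A1, fell by 1.73 ± 0.27 (means -1.09 at 22 h and 0.64 at 6 h). CYP17A1, the enzyme of androgen synthesis, had ratios of -1.76, -1.56, -2.09 and -2.13 at 22 h and 0.21, 0.60, 0.29 and 0.35 at 6 h and fell by 2.25 ± 0.12 (adjusted p = 1.66e-04).

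The cholesterol carrier STAR and the side-chain cleavage enzyme CYP11A1 were below pre-LH at both times and were not called between them. STAR had ratios of -1.16, -0.61, -0.65 and -0.80 at 22 h and -0.33, -0.22, -0.69 and -0.63 at 6 h (-0.34 ± 0.16, with 1 of 3 probes called lower, at -1.67), and CYP11A1 had -1.25, -2.12, -1.25 and -1.26 at 22 h and -0.51, -0.94, -1.19 and -0.042 at 6 h (-0.80 ± 0.29, adjusted p = 0.153). CYP19A1, the aromatase, was low at both times (means -2.47 at 22 h and -1.74 at 6 h) and was not called either (-0.73 ± 0.38, adjusted p = 0.298). Since the scraped cells hold some theca, the markers of theca stand beside these values: 3 of 11 tested markers fell, 1 rose, and their differences ran from -2.25 to 2.07. Besides CYP17A1, INSL3, a peptide hormone of theca cells, fell by 1.25 ± 0.20 (means -1.14 at 22 h and 0.12 at 6 h), and COLEC11, a collectin, by 1.18 ± 0.044 (means -2.55 at 22 h and -1.37 at 6 h). PTCH1, a receptor and target gene of hedgehog signalling, rose by 2.07 ± 0.22 on 1 of its 3 probes. OGN, TCF21, NR2F2 and ANPEP were not called between the times. Against pre-LH alone, 8 of the 11 theca markers were called lower at 22 h (10.6% of all genes). At 6 h 6 were called lower (12.8% of all genes), and 1 was called higher at each time. The part of theca cells in the steroid genes was not tested.

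Granulosa markers gave 6 of 14 members higher and 1 lower, and FSH-dependent genes of growing follicles 7 of 35 higher and 4 lower. Among all genes the shares were 7.72% higher and 7.41% lower. Most granulosa markers are also in the FSH-dependent list, so the counts are not separate results. NR5A2, GATM, FST and FSHR are rises of both lists, and INHBB is a fall of both. FSHR, the FSH receptor, had ratios of 0.18, 0.66, 0.068 and -0.56 at 22 h and -0.97, -0.79, -0.95 and -0.95 at 6 h and rose by 1.00 ± 0.19 (adjusted p = 0.0210), to near its pre-LH level, but it was no longer called without the 22 h array of replicate 3 and the 6 h arrays of replicate 1 and 2 (adjusted p up to 0.0757). GATM, which makes the creatine precursor, followed the same course, with ratios of -0.29, 0.34, -0.022 and 0.50 at 22 h and -2.02, -1.83, -1.85 and -1.44 at 6 h (1.92 ± 0.18). These counts rested on single arrays. Granulosa markers higher at 22 h numbered 2 without the 6 h arrays of replicate 1 and 2 and 3 without the 22 h array of replicate 3 and the 6 h array of replicate 3. FSH-dependent genes higher at 22 h numbered 4 without the 22 h array of replicate 3 and the 6 h array of replicate 2.

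The inhibin and activin subunits differed among themselves. INHBB fell, as given above. INHBA had ratios of -0.53, -0.81, -2.67 and -3.79 at 22 h and 0.014, 0.13, -0.50 and -0.081 at 6 h, and the 22 h values spread so widely that its difference of -1.84 ± 0.48 missed the threshold (adjusted p = 0.0568). Its pre-LH channel was saturated on 5 of 8 arrays. INHA had 0.78, 0.38, 0.036 and -1.64 at 22 h and 0.093, 0.15, -0.34 and -0.83 at 6 h and was not called (0.12 ± 0.36), with saturation on 2 arrays of 22 h and in 4 of 8 pre-LH channels. LHCGR, the LH receptor, was below pre-LH at both times (means -0.77 at 22 h and -0.69 at 6 h) and was not called (-0.074 ± 0.13, with a 95% interval from -0.39 to 0.24). The second LHCGR probe, of nearly the same brightness, differed by -0.50 ± 0.14 (adjusted p = 0.0661), which lies outside that interval. Falls among the FSH-dependent genes included the cyclin CCND2 (-2.05 ± 0.28), the gap junction gene GJA1 (-1.98 ± 0.18) and the IGF-binding protein IGFBP4 (-0.93 ± 0.14). Each of these was on average below pre-LH at 22 h and above it at 6 h.

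Luteal and luteinization genes gave 4 of 27 members higher and 7 lower. TNC, tenascin C, had ratios of 2.55, 2.11, 2.41 and 1.97 at 22 h and 0.26, -0.083, -0.081 and 0.078 at 6 h and rose by 2.22 ± 0.14, and CITED2, a transcription coregulator, rose by 1.14 ± 0.15. IGFBP3, an IGF-binding protein, fell by 2.02 ± 0.29 (means -1.55 at 22 h and 0.48 at 6 h), and the fibroblast growth factor FGF2 by 1.75 ± 0.11 (means -0.024 at 22 h and 1.73 at 6 h). Oxytocin (OXT), a product of luteinized bovine granulosa cells, was near pre-LH at both times (means 0.20 at 22 h and -0.043 at 6 h) and was not called.

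Among genes of protein folding in the endoplasmic reticulum, 10 of 45 members fell and 2 rose. Against pre-LH alone, 5 were called higher at 22 h (9.75% of all genes) and 15 at 6 h (11.5% of all genes). HSPA5, the BiP chaperone, had ratios of -1.75, -0.88, -0.60 and -0.61 at 22 h and 1.28, 0.66, 1.85 and 0.92 at 6 h and fell by 2.14 ± 0.28 (adjusted p = 0.00476). Its co-chaperones DNAJB11, with -1.11, -0.79, -0.79 and -0.60 at 22 h and 0.85, 0.94, 0.76 and 0.72 at 6 h, and DNAJB9 fell by 1.64 ± 0.11 and 1.55 ± 0.25. The groups did not overlap for HSPA5 or DNAJB11. HERPUD1, a gene induced by unfolded protein and chosen after its value was seen, differed by -1.08 ± 0.14. The 2 that rose were CREB3L2, a membrane-bound transcription factor (1.16 ± 0.14), and EDEM2, a lectin of protein disposal (0.92 ± 0.13). Without single arrays, lower members numbered 4 without the 22 h array of replicate 3 and 6 without the 6 h arrays of replicate 1 and 4.

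The list of heat shock chaperones gave 2 of 31 higher and 3 lower, near the shares of all genes (7.72% higher and 7.41% lower). HSPB1, a small heat shock protein, rose by 1.75 ± 0.16 (means 1.35 at 22 h and -0.40 at 6 h), while HSPH1, a nucleotide exchange factor of HSP70, fell by 1.72 ± 0.22 and the mitochondrial co-chaperonin HSPE1 by 1.07 ± 0.092. Proteasome subunits gave 4 of 46 lower and 0 higher, all by less than 1, and translation factors and tRNA synthetases 8 of 74 lower and 4 higher. Among all genes the shares were 7.41% lower and 7.72% higher. EEF1E1, a scaffold of the synthetase complex (-1.14 ± 0.11), and TARS1, the threonyl-tRNA synthetase (-1.14 ± 0.14), had the largest falls there. The count of lower translation genes was 4 without the 6 h arrays of replicate 1 and 2 and 5 without the 22 h arrays of replicate 2, 3 and 4. Amino acid carriers gave 5 of 29 lower and 0 higher, led by the glutamine carrier SLC1A5, with ratios of -0.81, -1.14, -0.79 and -0.37 at 22 h and 0.97, 0.68, 1.68 and 1.12 at 6 h (-1.89 ± 0.16). SLC1A4, a carrier of neutral amino acids, came next (-1.23 ± 0.28), although it lost its call when any single array other than the 22 h array of replicate 4 was left out (adjusted p up to 0.122), and SLC7A6 followed (-1.01 ± 0.14). The count of lower carriers was 2 without the 6 h arrays of replicate 2 and 4 and 3 without the 22 h arrays of replicate 2 and 3 and the 6 h arrays of replicate 1 and 3.

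**Figure D4:**
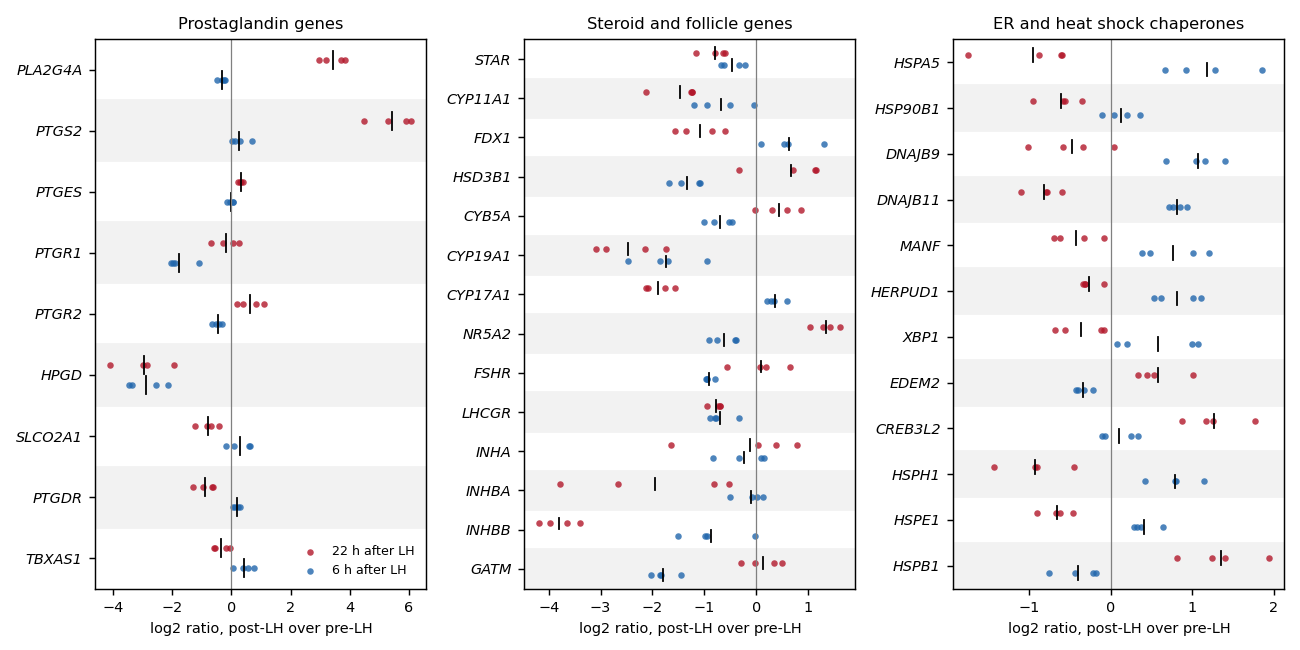
Log2 ratio of post-LH over pre-LH RNA on each array for prostaglandin genes (left), steroid and follicle genes (middle) and chaperones (right). Red points are 22 h, blue points 6 h, and black ticks the means. PLA2G4A and PTGS2 are high at 22 h, HPGD and LHCGR overlap between the times, and HSPA5, DNAJB9 and DNAJB11 lie below or near 0 at 22 h and above 0 at 6 h.

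Redox genes changed in both directions, with 6 of 43 higher and 5 lower. Of the thioredoxin genes, TXNRD1, the thioredoxin reductase, had ratios of -0.27, -0.43, -0.22 and -0.45 at 22 h and 1.42, 1.65, 1.25 and 1.10 at 6 h (-1.70 ± 0.11), and TXN, thioredoxin, fell by 1.22 ± 0.15. TXNIP, the inhibitor of thioredoxin, chosen after its value was seen, differed by 1.55 ± 0.14. PRDX1, a peroxiredoxin, rose by 1.65 ± 0.26 (means 1.80 at 22 h and 0.15 at 6 h), and catalase (CAT), also chosen afterwards, differed by 1.07 ± 0.16. GSTO1, a glutathione transferase, fell by 1.22 ± 0.14. Unlike VNN2, the other vanin VNN1 was not called (difference -1.0 ± 0.30, adjusted p = 0.0874). The difference between the vanins was not tested.

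In metal ion handling 5 of 33 members fell and 1 rose. SLC39A8, a zinc and manganese importer, was above pre-LH at both times and less so at 22 h, with ratios of 1.83, 2.50, 2.03 and 2.30 at 22 h and 5.24, 5.29, 4.36 and 4.40 at 6 h (-2.65 ± 0.22). The copper importer SLC31A1 (-1.34 ± 0.18) and the iron carrier SLC11A2 (-1.15 ± 0.11) fell on 1 of 3 probes each. When arrays were left out singly, members lower at 22 h numbered 3 without the 6 h arrays of replicate 1 and 2.

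Glycolysis, glucose and lactate transport gave 5 of 35 members higher and 2 lower, with a median difference of 0.19. The monocarboxylate carriers moved in opposite directions: SLC16A3, the exporter of glycolytic cells, had ratios of 2.14, 1.62, 1.10 and 0.59 at 22 h and -1.0, -0.47, -0.97 and -1.08 at 6 h (2.24 ± 0.23), while SLC16A1 fell by 1.43 ± 0.19 (means -1.21 at 22 h and 0.22 at 6 h). PDK3, a kinase that turns off pyruvate dehydrogenase, rose by 2.14 ± 0.12 (means 1.87 at 22 h and -0.27 at 6 h), and PFKM, the muscle phosphofructokinase, by 1.11 ± 0.12. The count of higher members was 3 without the 22 h array of replicate 3 and the 6 h array of replicate 2. Respiratory chain genes (4 of 81 higher, 4 lower), mitochondrial ribosomal proteins (4 of 77 higher, 5 lower) and cytosolic ribosomal proteins (0 of 65 higher, 2 lower) had shares below those of all genes in the main fit. This did not hold in every setting. Other settings called up to 7 respiratory chain genes higher and 8 lower. They called up to 8 mitochondrial and up to 5 cytosolic ribosomal proteins lower. Called members included the complex I subunit NDUFB11, with ratios of 2.57, 2.31, 2.15 and 1.38 at 22 h and 0.41, 0.068, 0.033 and 0.33 at 6 h (1.89 ± 0.22), and the mitochondrial ribosomal gene MRPL15, which fell by 1.31 ± 0.12. MRPL51 had 1 probe called in each direction.

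**Figure D5:**
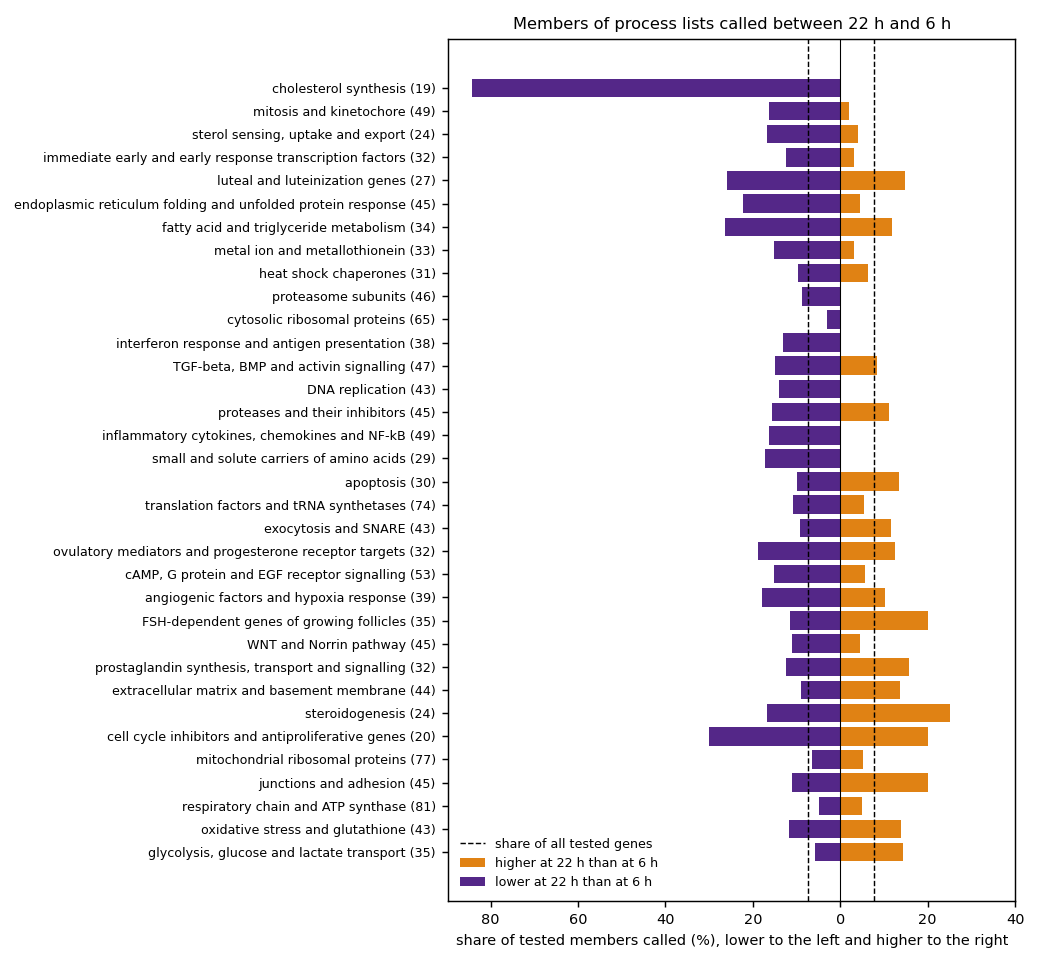
Share of the tested members of each of 34 process lists called lower (purple, to the left) or higher (orange, to the right) at 22 h than at 6 h, ordered by median difference, with the number tested in brackets. Dashed lines mark the shares of all 14138 tested genes, 7.41% lower and 7.72% higher. The bar of cholesterol synthesis is the longest, at 84.2%, and the bars of the ribosomal and respiratory chain lists end before the lines.

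Matrix genes gave 6 of 44 higher and 4 lower, against 7.72% higher and 7.41% lower among all genes. The falls thus lay near the share of all genes. POSTN had ratios of 2.55, 3.72, 3.48 and 2.48 at 22 h and -0.32, -0.078, -0.17 and 0.12 at 6 h, above 2 on every 22 h array and around 0 at 6 h, and COL4A5, a basement membrane collagen chain, rose by 1.69 ± 0.24 on all 3 of its probes. THBS1, the antiangiogenic thrombospondin, had ratios of -1.24, -0.53, -0.67 and 0.60 at 22 h and 2.10, 2.41, 2.23 and 2.09 at 6 h and fell by 2.67 ± 0.34. Proteases and their inhibitors gave 5 of 45 higher and 7 lower, against 7.72% higher and 7.41% lower among all genes. MMP11, a stromelysin, was raised at both times and rose further by 1.38 ± 0.19 (means 2.63 at 22 h and 1.24 at 6 h), and CTSZ, a lysosomal cathepsin, rose by 0.83 ± 0.11. Higher members numbered 3 without the 22 h array of replicate 3.

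Junction and adhesion genes gave 9 of 45 higher and 5 lower. ITGB5, an integrin subunit, rose by 1.78 ± 0.29 (means 1.23 at 22 h and -0.55 at 6 h), and VCAM1 rose by 1.14 ± 0.17. GJB2, a connexin, fell by 0.62 ± 0.10, as did GJA1. Without the 6 h array of replicate 1, 5 members were higher, and the count of lower members was 2 without the 22 h array of replicate 2 and the 6 h array of replicate 2 and 3 without the 22 h array of replicate 1 and the 6 h array of replicate 1. In exocytosis 5 of 43 members rose and 4 fell, against 7.72% higher and 7.41% lower among all genes. RAB27B, a GTPase of secretory vesicles, rose by 1.39 ± 0.17. SYT4, a synaptotagmin, fell by 1.55 ± 0.26 on all 3 of its probes. Members that rose numbered 1 without the 6 h array of replicate 2, 2 without the 22 h array of replicate 3 and the 6 h array of replicate 1 and 3 without the 22 h array of replicate 4 and the 6 h arrays of replicate 3 and 4.

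Of 49 tested genes listed under inflammatory cytokines, chemokines and NF-kB, 8 were called lower by limma and 0 higher, while other settings called up to 3 higher. Besides IL33, the chemokine CXCL14 fell by 2.06 ± 0.22, with ratios of -3.93, -3.72, -4.20 and -3.34 at 22 h and -2.04, -1.53, -1.94 and -1.47 at 6 h, so that it was below pre-LH at both times and lowest at 22 h. A second CXCL14 probe, about as bright, differed by -0.62 ± 0.37 and was not called (adjusted p = 0.373). SOCS2, a feedback inhibitor of cytokine receptors, fell by 1.46 ± 0.16 (means -0.24 at 22 h and 1.21 at 6 h). The count of lower members was 4 without the 22 h arrays of replicate 2 and 3 and the 6 h arrays of replicate 1 and 2 and 5 without the 22 h array of replicate 1. Of 38 interferon response and antigen presentation genes 5 were lower and 0 higher. The exonuclease ISG20 had ratios of 0.060, 0.034, 0.16 and 0.20 at 22 h and 2.92, 2.93, 1.81 and 2.57 at 6 h (-2.44 ± 0.22). Its probe was above background on 3 of 4 arrays of 22 h. That count was 1 without the 6 h array of replicate 2, 2 without the 22 h array of replicate 3 and 3 without the 6 h array of replicate 1.

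Angiogenic factors and hypoxia response gave 4 of 39 higher and 7 lower. EGLN1, an oxygen-sensing hydroxylase, rose by 0.45 ± 0.072. FGFR1, a receptor of FGF2, fell by 1.42 ± 0.16 (means 0.35 at 22 h and 1.77 at 6 h) while FGFR2 rose by 0.33 ± 0.058. VEGFA fell by 0.40 ± 0.10 on 1 of 2 probes and lost its call when any single array other than the 6 h array of replicate 3 was left out (adjusted p up to 0.122). Endothelial markers stand beside these values: 4 of 16 fell and 1 rose, with differences from -1.33 to 0.66. KDR, a VEGF receptor, fell by 1.33 ± 0.21 (means -1.15 at 22 h and 0.18 at 6 h), the transcription factor SOX18 by 1.00 ± 0.14 and ENG by 0.50 ± 0.072, while CDH5, TIE1, TEK and VWF were not called. Their part in the angiogenic genes was not tested.

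In mitosis and kinetochore genes, 8 of 49 members fell and 1 rose, and the median ratio was -1.0 at 22 h and -0.59 at 6 h, a median difference of -0.41. Against pre-LH alone, 41 of 49 were called lower at 22 h (10.6% of all genes) and 27 at 6 h (12.8% of all genes). CKS2, a partner of cyclin-dependent kinases, fell by 1.54 ± 0.15 (means -1.19 at 22 h and 0.35 at 6 h). STMN1, which destabilises microtubules, rose by 0.89 ± 0.13 (means 0.064 at 22 h and -0.83 at 6 h). The count of mitotic genes lower at 22 h rested on single arrays: 2 without the 6 h array of replicate 2, 3 without the 22 h arrays of replicate 2 and 3 and the 6 h array of replicate 1, 5 without the 22 h array of replicate 1 and the 6 h arrays of replicate 3 and 4 and 23 without the 22 h array of replicate 4. In DNA replication 6 of 43 members fell and 0 rose by limma, with medians of -0.65 at 22 h and -0.50 at 6 h. GINS1 and GINS4, subunits of the replicative helicase, fell by 1.19 ± 0.13 and 1.02 ± 0.10. TOP2A (means -0.42 at 22 h and -0.36 at 6 h) and MKI67 (means 0.084 at 22 h and -0.021 at 6 h) were not called. The probes of both were dim (mean log2 intensity 7.52 for TOP2A and 7.37 for MKI67), which may compress their ratios.

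Cell cycle inhibitors and antiproliferative genes gave 4 of 20 members higher and 6 lower. RBL2, a pocket protein of resting cells, rose by 1.31 ± 0.18, and CCNG2, an atypical cyclin that slows the cycle, by 1.15 ± 0.16. CDKN2B, an inhibitor of CDK4 and CDK6, was above pre-LH at both times (means 1.93 at 22 h and 3.44 at 6 h) and fell by 1.51 ± 0.29. It was no longer called without the 22 h array of replicate 3 and the 6 h arrays of replicate 1, 2 and 4 (adjusted p up to 0.0724). CDKN1A, the p21 inhibitor, was raised at both times (means 1.05 at 22 h and 1.28 at 6 h) and was not called. Lower members numbered 1 without the 6 h arrays of replicate 1 and 2, 2 without the 22 h array of replicate 3 and 3 without the 6 h array of replicate 3. Apoptosis genes gave 4 of 30 higher and 3 lower. BNIP3L, a receptor of mitophagy, rose by 1.89 ± 0.25, and BCL2, which protects from apoptosis, by 1.11 ± 0.13. MCL1, another protector, fell by 0.84 ± 0.081, and so did the apoptosome scaffold APAF1, by 0.86 ± 0.067. A dimmer MCL1 probe was not called, at -0.33, while the dimmest was called lower, at -0.85.

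In TGF-beta, BMP and activin signalling 4 of 47 members rose and 7 fell, against 7.72% higher and 7.41% lower among all genes. The rises thus lay near the share of all genes. The ligands diverged, with TGFB2 rising by 1.69 ± 0.20 (means 1.30 at 22 h and -0.39 at 6 h) and TGFB3 falling by 1.80 ± 0.16 (means 0.090 at 22 h and 1.89 at 6 h). BAMBI, a decoy receptor that dampens these signals, had ratios of 0.70, 0.44, 0.44 and 0.36 at 22 h and 3.38, 3.47, 2.92 and 3.07 at 6 h and fell by 2.72 ± 0.087 on 2 of 3 probes. BMPR1B, a BMP receptor, rose by 0.83 ± 0.10. ID1 and ID3, known BMP targets chosen after their values were seen, differed by -1.02 ± 0.071 and -0.97 ± 0.12, and ACVR1B, an activin receptor chosen likewise, by -1.14 ± 0.12. In cAMP, G protein and EGF receptor signalling 3 of 53 members rose and 8 fell, with the rises again near the share of all genes. ADAM17, the protease that sheds EGF-like factors, fell by 0.90 ± 0.078 on 1 of 3 probes, and PRKAR2B, which encodes a protein kinase A regulatory subunit, rose by 0.57 ± 0.074. Members that fell numbered 3 without the 6 h arrays of replicate 1 and 2 and 5 without the 22 h arrays of replicate 2 and 3. WNT and Norrin pathway genes gave 2 of 45 higher, DKK3 (1.04 ± 0.15) and WNT2 (0.85 ± 0.11), and 5 lower. Among all genes the shares were 7.72% higher and 7.41% lower. The count of lower members was 0 without the 22 h array of replicate 3 and the 6 h array of replicate 2, 1 without the 22 h array of replicate 2 and the 6 h array of replicate 1 and 2 without the 22 h array of replicate 1 and the 6 h array of replicate 4.

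Markers of other cell types were called in few cases. Of 23 leukocyte markers 1 was lower and 0 higher: LYZ, lysozyme, fell by 0.62 ± 0.15, and it lost its call when any single array other than the 6 h array of replicate 1 was left out (adjusted p up to 0.143). PTPRC, which marks all leukocytes, was not called. Among 16 fibroblast and smooth muscle markers POSTN was the only one called, and COL1A1, COL1A2, COL3A1 and PDGFRA were not. Of 9 surface epithelium markers KRT18 was called (-0.91 ± 0.20), and it lost its call when any single array other than the 22 h array of replicate 4 and the 6 h array of replicate 3 was left out (adjusted p up to 0.0994). Of 12 oocyte and cumulus markers DAZL was called (-0.50 ± 0.082), on 1 of 2 probes. Of 6 erythrocyte markers none was called by limma, and the one nearest the threshold was AHSP (0.36 ± 0.10, adjusted p = 0.0706).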

How the data were processed

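Two-colour bovine oligonucleotide arrays (45212 spots, 43794 probes after 1418 control spots were left out) were read from the deposited scanner files, whose intensity values the authors left unnormalized, per the file headers (mean foreground and median background of each dye). The authors also deposited a table of processed log2 ratios, for which no processing step is given in the sources used here. Its log2 values correlated at 0.84 to 0.93 with the ratios computed from the scanner files, turned the same way, and it served as an alternative.

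Intensities were background-corrected with normexp (offset 50), normalized within arrays by loess with control spots at weight 0, and turned to post-LH over pre-LH by the dye labels. Probes brighter than the 95th percentile of negative controls in at least a share of 0.5 of the channels of a time were tested (38453). limma 3.58.1 in R 4.3.3 fitted 22 h, 6 h and a dye effect over all 8 arrays, with 5 residual and 1.94 prior degrees of freedom, and the contrast 22 h minus 6 h was corrected for all tested probes together with the Benjamini-Hochberg method. All adjusted p-values are from limma. The printed array values keep the dye effect that the fit removes. Gene symbols came from the platform annotation, with 1524 probes updated. More than 1 probe was tested for 3582 genes, and probes of 4 of them were called in opposite directions. Ratios of a saturated or barely detected probe are compressed.

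Data were simulated for this comparison over the 38453 tested probes, with independent normal noise of the fitted size. Changes of 0.5, 1 and 2 on the log2 scale were put into 66, 67 and 67 probes. Of these, 62.1%, 88.1% and 98.5% were recovered, with 7 false calls. Noise shared between probes was not simulated, so these shares may not hold for the real arrays. The labels call the replicates biological without saying whether each was a cow, a follicle or a pool, so p-values measure only the spread between these samples. Replicate numbers were not used to pair the samples. The genes, lists and tests were chosen with earlier results of these data known. Named by rule were the 15 largest rises and falls among called genes with non-overlapping arrays, the 3 largest called members of each list in each direction, and 40 preset genes, of which 3 were not analysed here. Of the list members so named, several whose calls rested on single arrays are only counted. No sequence or promoter was used here. Lists are described by counts, without a set test.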

Additional observations from a re-analysis of the deposited data

Results flagged for a closer look

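In 25 of 548 groups of 4 arrays, checked for the genes named by the rule or in the text, 1 array lay far from the other 3 by the gap test at the 95% level, which chance meets in about 1 of 20 groups. Each value is the log2 ratio of post-LH over pre-LH on that array, set against the range of the other 3 arrays of its time. The 22 h array of replicate 1 stood apart for TGFBR3 (-0.59 against 0.68 to 0.90), STX12 (0.54 against 1.11 to 1.22), CLDN5 (0.31 against -0.26 to -0.17), MVK (-0.40 against -0.94 to -0.91) and SQLE (-2.31 against -1.72 to -1.64). The 22 h array of replicate 2 stood apart for SCARB1 (0.26 against 0.80 to 0.88), CYP11A1 (-2.12 against -1.26 to -1.25) and SCD (-0.45 against -0.98 to -0.89). The 22 h array of replicate 3 stood apart for AREG (-0.069 against 0.057 to 0.080) and LHCGR (-0.94 against -0.73 to -0.69). The 22 h array of replicate 4 stood apart for PNPLA2 (-0.31 against 0.33 to 0.38), FASN (-1.53 against -1.03 to -0.97) and HERPUD1 (-0.087 against -0.34 to -0.31). The 6 h array of replicate 2 stood apart for BGN (-0.15 against -0.65 to -0.57) and FSHR (-0.79 against -0.97 to -0.95). The 6 h array of replicate 3 stood apart for STX11 (0.50 against 1.28 to 1.37), FASN (-0.065 against -0.60 to -0.54) and CAT (-1.37 against -0.98 to -0.91). The 6 h array of replicate 4 stood apart for PTGR1 (-1.09 against -2.03 to -1.92), PLA2G12A (-0.15 against 0.27 to 0.33), FGFR1 (2.14 against 1.63 to 1.66), ITGB5 (0.19 against -0.89 to -0.75), CLDN11 (0.30 against 1.60 to 1.71), PTCH1 (-0.13 against -0.71 to -0.64) and NR4A1 (1.57 against 2.74 to 2.95).

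Probes without a gene symbol, which take no part in the comparisons above, also differed between the times. Of 18664 such tested probes 1396 were called in 22 h minus 6 h (7.48%), 573 higher and 823 lower at 22 h, and 308 of them by at least 2-fold. The largest rises included EMBV3_36740 (3.73) and EMBV3_19176 (2.89), and the largest falls EMBV3_22540 (-3.66) and EMBV3_28388 (-2.83).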

How the results depend on the processing

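Of the 2139 genes called, 2137 to 2139 kept their direction under every alternative that tested all of them, and 2058 of 2058 did with probes detected on every array. As the alternatives reuse the arrays that gave the calls, a change of direction was unlikely beforehand, and the kept directions say little. Median centring in place of loess left 22 called (13 higher and 9 lower at 22 h, and 22 by at least 2-fold), and scaling between arrays left 211 (116 higher and 95 lower, 70 by at least 2-fold); 16 and 22 of the 250 called genes that are named or listed stayed called under these, and the cause was not tested. Leaving out 1 array at a time gave 1187 to 2052 calls, with 605 to 1082 higher, 582 to 1056 lower and 537 to 690 of at least 2-fold; fewer arrays are fitted there. The other alternatives gave 1629 to 2763 calls, from a fit with no dye effect to one with array weights. Arrays of like replicate number had correlations of deviations of -0.10, 0.18, 0.11 and -0.30 between the 2 times. Between unlike numbers the correlation ran from -0.51 (22 h replicate 1 with 6 h replicate 2) to 0.54 (22 h replicate 1 with 6 h replicate 4). A common dye effect was taken out first, which pushes arrays of the same dye in the 2 times towards opposite deviations. Arrays of like number share a dye, so these values cannot decide whether the numbers pair the samples. Other dependence between arrays of the 2 times was not tested. With the replicate block 2022 genes were called, 1733 of them among the 2139. Genes with small differences changed sign. MKI67 was at -0.0062 without background correction, INHA at -0.18 with median centring, and MRPL51 at -0.14 with the mean of its probes. With scaling, BTG2 was at 0.082, TNFAIP6 at 1.94, CDKN1A at 0.23 and TIMP1 at 0.43. TNFAIP6 was also at 0.011 in the deposited values and 0.053 with array weights. Leaving out 1 array spanned -0.64 to 0.21 for TNFAIP6, -0.13 to 0.060 for LHCGR, -0.15 to 0.52 for INHA, -0.34 to 0.15 for HPGD and -0.17 to 0.092 for TOP2A. Saturated (TNFAIP6, INHA, INHBA) or dim probes limit the ratios.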
